A study of Homo sapiens with 50 samples.

Results

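The 4 ID genes, SOX4 and SMAD6 were followed in H1299 cells, a human non-small cell lung carcinoma line that lacks p53, and in H1299shRAD9 cells, which carry a stably integrated hairpin against RAD9 mRNA. All spots that are not controls and whose gene name is ID1, ID2, ID3, ID4, SOX4 or SMAD6 were taken, which gave 7 features of the 34127 on the array, 2 of them for ID2. The genes were chosen with measured differences from controls in H1299shRAD9 cells known, so those differences are given as a description, and counts past a threshold there support nothing. RNA was taken 4 h after exposure from 5 groups of 5 samples in each line, 50 samples in all. CTL cells were sham irradiated and received no ions. DBP and DBN cells, on thin Mylar, received 1 Gy of 4He ions (125 keV per micron), and BP and BN cells shared their medium as bystanders on thicker Mylar that the ions do not cross. The letters P and N mark dishes whose bystander cells had a high or only a background share of micronuclei, by cutoffs the paper set. The groups were thus picked from the extremes of a damage readout after exposure. H1299shRAD9 cells came from stable, puromycin-selected transfectants of which more than 1 clone was used, and the clone behind each sample is not stated in the labels. The samples are described as independent, and p-values measure the spread between them.

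ID proteins are helix-loop-helix factors with no DNA-binding part. They pair with E proteins such as TCF3 and TCF12 and keep these from binding DNA with their tissue-specific partners, which holds back differentiation. ID1, ID2 and ID3 are textbook direct targets of bone morphogenetic protein (BMP) signalling, in which receptors phosphorylate SMAD1, SMAD5 and SMAD9, and SMAD6 is an inhibitory SMAD that the same pathway induces and that feeds back on the receptors. SOX4 is a transcription factor of the SOX group C, active in progenitor cells, often raised in carcinomas and responsive to TGF-beta.

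The 250 bases before the annotated start of ID1, ID2, ID3 and SMAD6 are shown because ID1, ID2 and ID3, which were well above background on every array, carry most of the values that follow, and SMAD6 is a feedback target of the same pathway. They are RefSeq sequences of GRCh38.p14, read 5′ to 3′ along the gene. Capitals mark matches on either strand to the TATA box (searched as TATAAA), the CCAAT box, the GC-rich SMAD element (searched as GGCGCC), the palindromic SMAD element (searched as GTCTAGAC), the E-box (searched as CACGTG) or the CREB element (searched as TGACGTCA).
ID1, chr20:31605039-31605288, plus strand: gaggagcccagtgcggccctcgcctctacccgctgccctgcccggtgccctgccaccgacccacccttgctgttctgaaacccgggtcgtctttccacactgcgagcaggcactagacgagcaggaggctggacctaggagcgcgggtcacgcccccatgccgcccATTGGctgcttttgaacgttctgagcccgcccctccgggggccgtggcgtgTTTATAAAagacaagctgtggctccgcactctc
ID2, chr2:8681806-8682055, plus strand: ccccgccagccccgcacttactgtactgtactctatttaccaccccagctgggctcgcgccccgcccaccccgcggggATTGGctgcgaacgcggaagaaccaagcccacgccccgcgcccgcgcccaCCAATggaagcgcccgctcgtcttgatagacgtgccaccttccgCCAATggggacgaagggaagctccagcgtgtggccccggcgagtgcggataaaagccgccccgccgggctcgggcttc
ID3, chr1:23559502-23559751, minus strand: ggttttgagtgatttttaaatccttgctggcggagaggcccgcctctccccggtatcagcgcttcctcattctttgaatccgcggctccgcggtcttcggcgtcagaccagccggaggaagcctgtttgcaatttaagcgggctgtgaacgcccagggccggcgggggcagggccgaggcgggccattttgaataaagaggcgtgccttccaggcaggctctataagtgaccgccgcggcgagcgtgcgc
SMAD6, chr15:66701986-66702235, plus strand: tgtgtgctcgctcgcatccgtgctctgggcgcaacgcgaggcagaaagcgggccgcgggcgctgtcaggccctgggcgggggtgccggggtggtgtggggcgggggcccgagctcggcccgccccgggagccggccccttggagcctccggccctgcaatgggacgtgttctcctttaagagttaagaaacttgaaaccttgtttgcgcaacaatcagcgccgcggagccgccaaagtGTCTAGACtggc

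The ID1 sequence held TATAAA on both strands in an overlapping run that ended 26 bases before the start, and 1 CCAAT match read on the opposite strand. The ID2 sequence held 3 CCAAT matches, 1 of them on the opposite strand, the nearest ending 74 bases before the start. The SMAD6 sequence held GTCTAGAC, ending 5 bases before the start, and the ID3 sequence held none of the 6 motifs. Among 35116 promoter windows of this length, TATAAA was in 10.7%, CCAAT in 32%, GGCGCC in 16.4%, GTCTAGAC in 0.182%, CACGTG in 6.34% and TGACGTCA in 1.65%. A match is a run of letters and was not tested as a binding site.

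Levels are log2 intensities relative to the median of the array, and differences of 1 on this scale are changes of 2-fold. The share of probes well above background ran from 55.4% to 73.0% over 25 H1299shRAD9 arrays (median 60.9%) and from 59.7% to 83.3% in H1299 (25 arrays, median 64.6%). The highest correlation between a pair of arrays was 0.996. RAD9A, the target of the hairpin, stood at 3.65 ± 0.19 (SD, n = 5) in H1299shRAD9 and 4.01 ± 0.13 in H1299 controls, so that 77.9% of the H1299 RNA level remained (adjusted p = 0.0561 by limma, without the 1.3-fold criterion, not past the threshold). The paper reported the reduction for RAD9 protein, by Western blot, which an RNA feature does not measure. The carcinoma markers KRT8, KRT18 and VIM were well above background on all 50 arrays. Of the markers of other cells, COL1A1 was well above background on 8 arrays, COL1A2 on 2, LUM on 0 and PECAM1 on 2, whereas DCN was on 44, CD3E on 38, and PTPRC and CDH5 on all 50, and their part in the results was not tested.

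Among the ID genes, ID3 lay farthest below the controls in directly irradiated parental cells. Its feature A_23_P137381 lies at chr1:23885666-23885725 on the minus strand (hg19) and was well above background on all 50 arrays. In H1299 controls the 5 samples read 5.40, 4.96, 4.63, 4.44 and 4.90. DBP samples read 4.28, 3.62, 3.85, 3.71 and 4.05, and BP samples 4.17, 3.63, 3.93, 3.90 and 4.33. Every DBP and every BP sample lay below the lowest control. DBN samples read 4.21, 4.46, 3.93, 4.27 and 4.37, and BN samples 4.47, 4.21, 4.25, 4.59 and 4.48, which touched the lower end of the controls. The mean difference from controls was −0.96 ± 0.16 (SE) in DBP, or 51.3% of the control level, with all 5 samples lower than the control of the same number (adjusted p = 0.14 by limma over 12206 features). It was −0.87 ± 0.20 in BP (adjusted p = 0.78, lower in 5 of 5), −0.62 ± 0.24 in DBN (adjusted p = 1.00, lower in 5 of 5) and −0.46 ± 0.16 in BN (adjusted p = 1.00, lower in 4 of 5). None passed the thresholds (p under 0.006 with a 10% limit on false discoveries). The DBP value passed them with all groups in one fit (adjusted p = 0.0103, where 0.229% of all features passed), with normexp background correction (−1.26, adjusted p = 0.0425, 0.205% of features) and with slide as a random block (adjusted p = 0.0522, 0.205%), and its adjusted p by limma ranged from 0.0103 to 0.82 over the alternatives.

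In H1299shRAD9 controls ID3 read 4.28, 4.89, 4.17, 4.16 and 4.55. DBP samples read 3.72, 4.24, 3.47, 3.59 and 3.93, BP samples 4.26, 4.26, 3.82, 3.84 and 3.80. Each of these lay below the control of its number, though the highest overlapped the lowest controls. DBN samples read 3.86, 3.75, 3.93, 3.70 and 4.13, all below the lowest control, and BN samples 3.85, 4.19, 4.36, 3.96 and 3.80. The differences were −0.62 ± 0.09 for DBP, −0.41 ± 0.13 for BP, −0.53 ± 0.14 for DBN and −0.38 ± 0.15 for BN. In unirradiated cells the difference of H1299shRAD9 from H1299 was −0.46 ± 0.20 for ID3 (adjusted p = 0.12 by limma). The control groups overlapped, and the difference did not pass the thresholds used between lines (p under 0.005, same limit on false discoveries). Ordered by mean, H1299 controls were highest at 4.86 ± 0.37 (SD), the H1299shRAD9 controls next at 4.41 ± 0.31, and H1299shRAD9 DBP lowest at 3.79 ± 0.30. Of the 9 gaps between neighbours in that order, the gap below H1299 controls was the only one larger than the SD of both its groups.

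ID1 was measured by A_23_P252306 at chr20:30194158-30194217 on the plus strand (hg19), which was bright and unsaturated on all 50 arrays. H1299 controls read 8.94, 8.40, 9.15, 8.83 and 8.90. DBP samples read 8.44, 8.48, 8.45, 8.02 and 8.49, and BP samples 8.48, 8.25, 8.83, 8.53 and 8.27. The DBP samples lay below 4 of the 5 controls and overlapped the control of replicate 2, and the BP samples reached the control of replicate 4 as well. DBN samples read 7.28, 8.48, 8.16, 8.76 and 8.85, and BN samples 8.37, 7.60, 8.57, 9.03 and 8.97, with the widest spread of all ID1 groups. The differences were −0.47 ± 0.17 (SE) for DBP, −0.37 ± 0.17 for BP, −0.54 ± 0.29 for DBN and −0.34 ± 0.17 for BN, with adjusted p between 0.75 and 1.00 by limma, and the samples were lower than their numbered control in 4, 5, 4 and 3 of 5.

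In H1299shRAD9 the ID1 controls read 8.75, 9.36, 8.82, 8.99 and 9.10. DBP samples read 8.07, 8.71, 8.35, 8.36 and 8.62, all below the lowest control. BP samples read 8.66, 8.86, 8.62, 8.48 and 8.68, DBN samples 8.28, 8.18, 8.76, 8.51 and 8.87, and BN samples 8.46, 8.52, 8.80, 8.74 and 8.71. In each exposed group all 5 samples lay below the control of the same number. The groups share those controls, so these counts are not independent, and they are a description. The differences for ID1 were −0.58 ± 0.09 for DBP (66.8% of the control level), −0.34 ± 0.11 for BP, −0.48 ± 0.16 for DBN and −0.36 ± 0.13 for BN. Between unirradiated lines the difference in ID1 was within the replicate spread (0.16 ± 0.17 higher in H1299shRAD9, adjusted p = 0.51 by limma). None of the 9 gaps between neighbouring group means exceeded the SD of its groups, from 9.0 ± 0.24 (SD) in H1299shRAD9 controls to 8.31 ± 0.63 in H1299 DBN.

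ID2 had 2 features, A_23_P143143, whose genomic span of 389 bases (chr2:8822642-8823030, plus strand, hg19) crosses an intron, and A_32_P69368 downstream of it (chr2:8824282-8824341). At A_23_P143143 the H1299 controls read 3.40, 2.83, 3.38, 2.55 and 3.02. BP samples read 2.19, 2.13, 2.32, 1.97 and 2.19, all below the lowest control, and DBP samples 3.29, 2.54, 2.51, 1.82 and 2.36. Replicate 1 of DBP stayed among the controls whereas the other DBP samples lay below every control. DBN samples read 3.10, 2.82, 2.41, 2.36 and 2.15, and BN samples 2.21, 2.15, 2.82, 2.50 and 2.14. The differences were −0.53 ± 0.17 (SE) for DBP, −0.87 ± 0.18 for BP (54.5% of the control level), −0.47 ± 0.25 for DBN and −0.67 ± 0.16 for BN, each lower in 5 of 5 pairs, with adjusted p between 0.73 and 1.00 by limma. At A_32_P69368 they were −0.47 ± 0.23, −0.74 ± 0.22, −0.28 ± 0.28 and −0.67 ± 0.12, lower in 4, 4, 4 and 5 of 5 pairs, with adjusted p between 0.75 and 1.00.

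In H1299shRAD9 the A_23_P143143 controls read 2.87, 3.43, 2.69, 2.64 and 2.66. DBP samples read 2.41, 2.49, 2.19, 2.23 and 2.23, and BN samples 2.02, 2.43, 2.51, 2.61 and 2.19. Both groups lay wholly below the controls. BP samples read 2.72, 2.50, 2.03, 2.04 and 2.30, and DBN samples 2.26, 2.22, 2.74, 2.55 and 2.27, with 1 sample of each among the controls. The differences were −0.55 ± 0.11 for DBP, −0.54 ± 0.13 for BP, −0.45 ± 0.18 for DBN and −0.51 ± 0.16 for BN, and at A_32_P69368 −0.69 ± 0.13, −0.65 ± 0.12, −0.52 ± 0.17 and −0.58 ± 0.19. Unirradiated lines differed by −0.18 ± 0.21 at A_23_P143143 (adjusted p = 0.54 by limma) and 0.04 ± 0.23 at A_32_P69368 (adjusted p = 0.89). Once group means were removed, the pair of ID2 features correlated at 0.80 over the 50 arrays, against 0.12 for ID1 with A_23_P143143, 0.36 for ID1 with ID3 and 0.48 for A_23_P143143 with ID3. The arrays of a slide share hybridization and scan, so these correlations are descriptions.

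**Figure D1:**
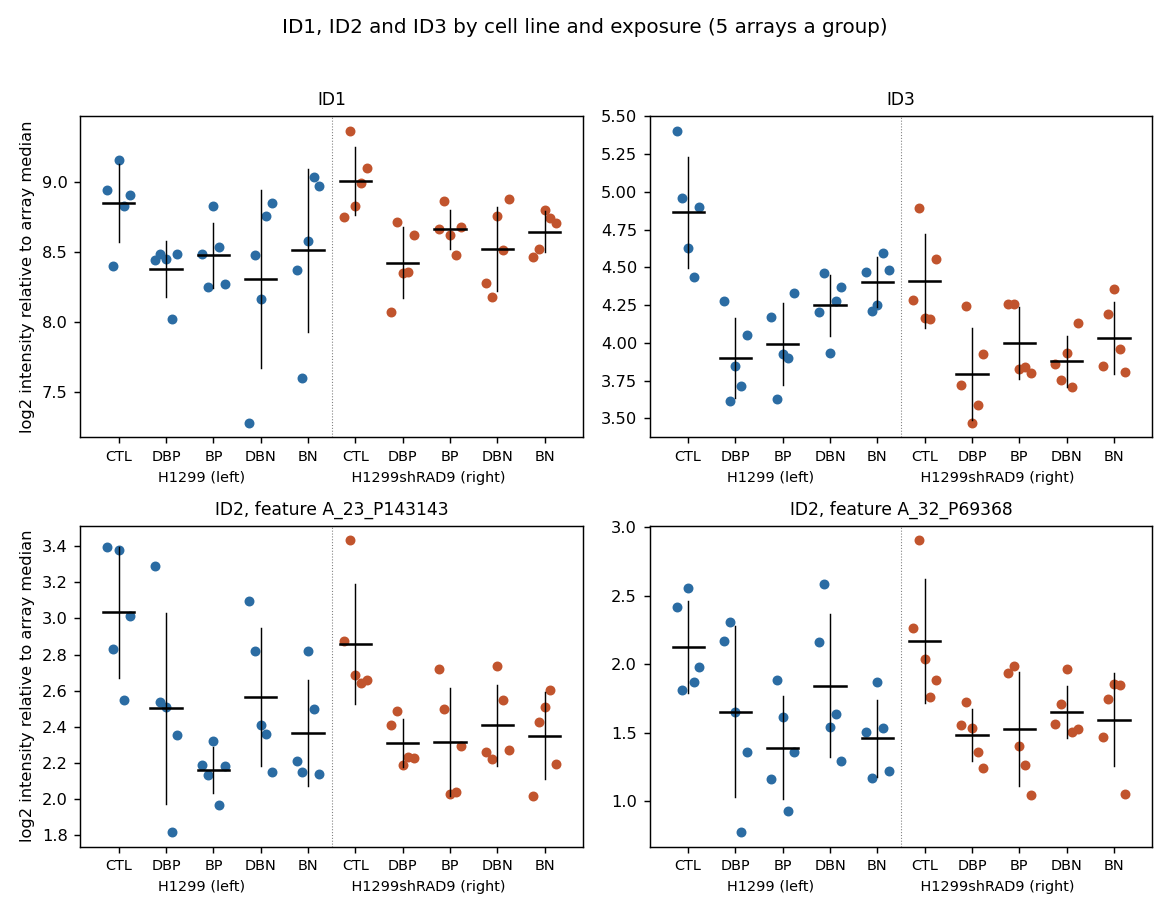
Log2 intensity relative to the array median (vertical axes) of ID1, ID3 and both ID2 features in the 5 exposure groups of H1299 (blue) and H1299shRAD9 (orange). Points are arrays in replicate order, bars the group mean and lines 1 SD. The controls had the highest mean of their line in every panel, and single samples of most other groups overlapped them.

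Counted over the 6 member features that passed both filters on background and variation (ID4 did not pass), none was differentially expressed in H1299 against controls by limma. In DBP 6 of 6 features had a mean below the controls (48% of all features did), and 3 had an unadjusted p under 0.05 (6.26%). In BP 5 lay below (62.4%) and 4 had such a p (5.83%). The counts were 6 below (66.9%) and 1 with such a p (3.47%) in DBN, and 5 below (62.8%) and 4 with such a p (2.79%) in BN. All samples lay below all controls for 1 of 6 features for DBP (0.909% of all features), 2 for BP (0.385%), 0 in DBN (0.868%) and 0 in BN (0.123%). The random-variance test of the study's methods also called 0 of them in each. Of all features 0.0573% passed both thresholds for DBP, 0% for BP, 0.0164% for DBN and 0% for BN. Taken in the order DBP, BP, DBN, BN, the median of the member features was −0.50, −0.80, −0.42 and −0.48, beside 0.01, −0.07, −0.10 and −0.04 over all features. These 4 comparisons share the same 5 controls.

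In H1299shRAD9, where the genes were chosen, 4 of the 6 features (ID1, ID3 and both of ID2) passed the thresholds in DBP, where 1.78% of all features did. The count was 1 in BP (A_32_P69368 of ID2, beside 2.33% of all features), 1 in DBN (SOX4, 4.78%) and 0 in BN (0.0492%, with 5 at an unadjusted p under 0.05, as 14.3% of all features were, and 0 by the random-variance test). These counts are given without a reading. With no replicate block all 4 counts were 0. Leaving out 1 replicate brought the DBP count to 0 (without replicate 2, 3, 4 or 5), the BP count to 0 (without 1, 2, 4 or 5) and the DBN count to 0 (without 1, 3 or 4). In the same order the member medians were −0.65, −0.56, −0.53 and −0.44, beside medians over all features between −0.02 and 0.02.

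**Figure D2:**
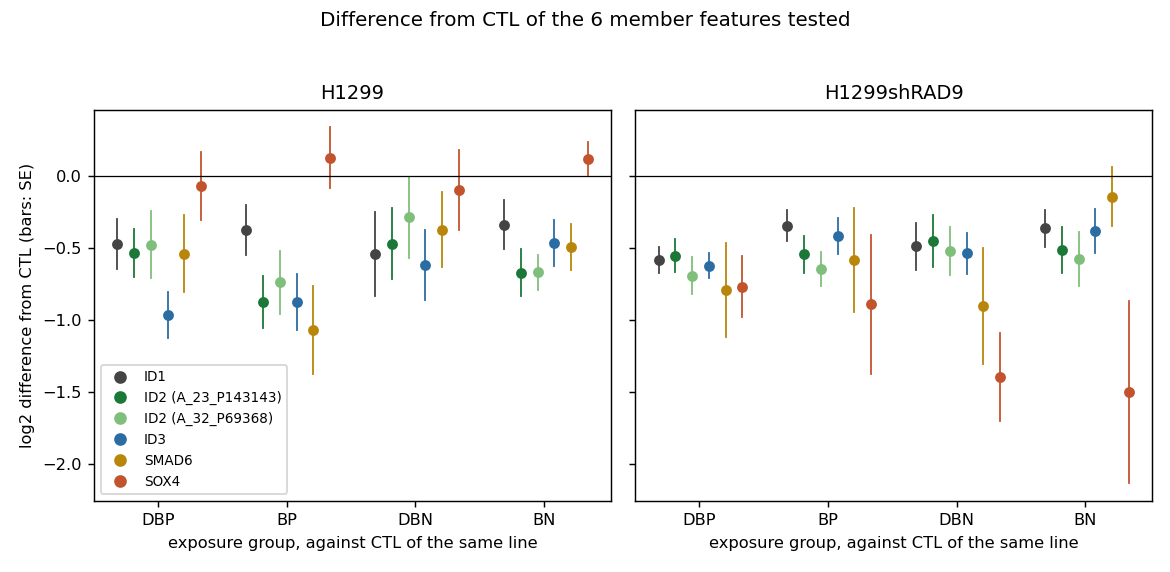
Log2 difference from the controls of the same line (vertical axis, bars 1 SE) for the 6 tested member features in the 4 exposed groups, H1299 at left and H1299shRAD9 at right. The ID features lay between −0.96 and −0.28 in H1299 and between −0.69 and −0.34 in H1299shRAD9, whereas SOX4 lay near 0 in H1299 and between −1.50 and −0.77 in H1299shRAD9.

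Direct and bystander cells of the same replicate number were next compared. In H1299shRAD9 this contrast is the gap between differences from controls that were known when the genes were chosen. Its counts and p-values in that line are therefore a description. No member feature passed the thresholds in H1299 DBP against BP, H1299 DBN against BN, H1299shRAD9 DBP against BP or H1299shRAD9 DBN against BN by limma or by the random-variance test, where 0%, 0%, 0.0983% and 0.131% of all features did. At an unadjusted p under 0.05 the counts were 0, 0, 0 and 1 of 6, where 6.06%, 3.37%, 4.61% and 2.58% of all features were. ID3 differed by −0.09 ± 0.14 (SE) and −0.15 ± 0.21 in H1299, and by −0.21 ± 0.12 and −0.16 ± 0.14 in H1299shRAD9, in DBP against BP and DBN against BN. ID1 was lower in DBP than in BP in 5 of 5 H1299shRAD9 pairs, by 0.24 ± 0.11 on the log2 scale (adjusted p = 1.00 by limma). ID2 in H1299 was higher in DBP than in BP at A_23_P143143, by 0.34 ± 0.20, with an adjusted p of 0.72.

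The change of exposure response between the lines was expressed as an interaction, the H1299shRAD9 difference from controls minus that of H1299. It draws on the differences that were known when the genes were chosen, and so is a description with no test. For ID1, ID2 and ID3 the interactions lay between −0.23 and 0.46, and the ones farthest from 0 were those of ID3 in BP (0.46 ± 0.22) and DBP (0.34 ± 0.17), positive where the difference from controls was smaller in H1299shRAD9.

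Arrays were hybridized on 13 slides of up to 4, and differences from controls could be formed within slides that held both. In H1299 5 slides gave 13 such differences for each feature. ID2 at A_23_P143143 was lower than the control in 13 of 13, ID3 in 12, ID1 in 11 and ID2 at A_32_P69368 in 10. In H1299shRAD9 3 slides gave 7 differences, and ID1, ID3 and both ID2 features were lower in 7 of 7, with medians of −0.48 for ID1, −0.73 for ID3, −0.46 for A_23_P143143 and −0.84 for A_32_P69368. Differences on a slide shared controls, and those in H1299shRAD9 recut values known when the genes were chosen. The counts are thus descriptions, and the share of all features with such counts was not computed.

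SMAD6, the feedback inhibitor of BMP receptors, was dimmer, with A_33_P3220470 (chr15:67074263-67074322, plus strand, hg19) well above background on 24 of 25 H1299 and 16 of 25 H1299shRAD9 arrays, so that it passed the background filter through H1299. H1299 controls read 0.58, 0.36, −0.31, −0.43 and −0.13. BP samples read −1.99, −0.03, −0.63, −1.16 and −1.46, each below the control of its number, with the sample of replicate 2 among the controls. The BP sample of replicate 1 was not well above background. Over left-out replicates the BP difference from controls ran from −1.26 to −0.69. DBP samples read 0.40, 1.03, −1.50, −1.24 and −1.32, so that replicates 1 and 2 stood among or above the controls and the other 3 below all of them. The differences were −0.54 ± 0.27 (SE) for DBP, −1.07 ± 0.31 for BP, −0.37 ± 0.26 for DBN and −0.49 ± 0.16 for BN, with adjusted p of 0.75, 0.78, 1.00 and 1.00 by limma.

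H1299shRAD9 controls of SMAD6 read 0.24, −1.09, −0.46, −1.44 and −0.49. DBN samples read −2.66, −2.07, −0.64, −1.05 and −1.32, and BN samples −0.15, −1.95, −0.44, −0.73 and −0.66. DBN was below its BN partner in 5 of 5 pairs, with a difference of −0.76 ± 0.31, the only direct against bystander difference among the members with an unadjusted p under 0.05 (adjusted p = 1.00 by limma). Without replicate 1, whose DBN array was not well above background, it was −0.32. Group means against controls were −0.79 ± 0.33 for DBP, −0.58 ± 0.36 for BP, −0.90 ± 0.41 for DBN and −0.14 ± 0.21 for BN. These rest in part on dim arrays, as SMAD6 was well above background on 4 of 5 CTL, 1 of 5 DBP, 4 of 5 BP, 3 of 5 DBN and 4 of 5 BN arrays. Without replicate 1 the DBP, BP and DBN values were −0.48, −0.16 and −0.40, and without replicate 2 the BN value was 0.039. Unirradiated H1299shRAD9 cells differed from H1299 by −0.66 ± 0.30 (adjusted p = 0.12 by limma), with overlapping groups. SMAD6 passed the background filter through H1299, so the filter was not independent of the line and this comparison is a description. None of the gaps between neighbouring group means exceeded the SD.

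ID4, whose product differs from the other ID proteins in its tissue pattern and can antagonize them, was measured by A_33_P3229370 (chr6:19840841-19840900, plus strand, hg19). It was well above background on all 25 H1299 arrays but on 7 of 25 H1299shRAD9 arrays, and so failed the background filter. H1299 controls read −0.81, −0.72, −0.72, −1.12 and −0.80, and H1299shRAD9 controls −2.66, −1.17, −1.67, −1.03 and −2.10. The replicate 4 samples of both lines overlapped, and the other H1299 controls lay above all H1299shRAD9 controls. ID4 was well above background on 2 of the 5 H1299shRAD9 controls, so no fold is given for them. In H1299shRAD9 DBP, where no array measured it above background, H1299 DBP was at least 1.33-fold higher, against a dim-group limit set, per array, at the higher of the lowest level well above background and the feature's own. Over the exposed H1299 groups ID4 ranged from −1.62 to −0.62.

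**Figure D3:**
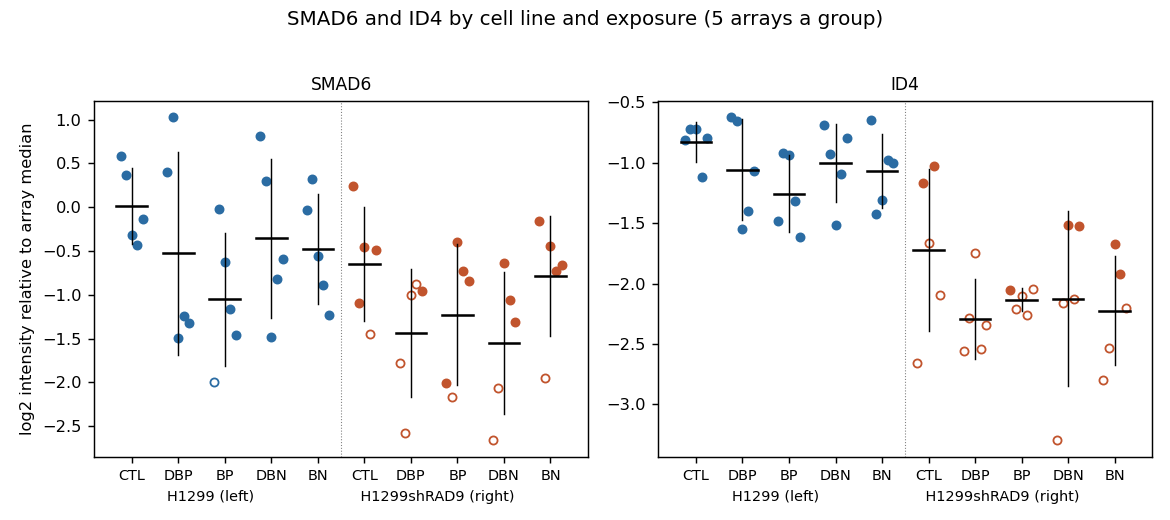
Log2 intensity relative to the array median (vertical axes) of SMAD6 and ID4 in the 5 exposure groups of H1299 (blue) and H1299shRAD9 (orange). Open points were not well above background, bars are group means and lines 1 SD. The open points of ID4 are all in H1299shRAD9.

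SOX4 was high in every H1299 sample and high or low in H1299shRAD9 samples. Its feature A_24_P911676 (chr6:21598001-21598060, plus strand, hg19) was well above background on all 25 H1299 arrays, between 0.18 and 1.76, and on 15 of 25 H1299shRAD9 arrays. It thus passed the background filter through H1299, the line in which it is high. The filter was therefore not independent of the line, and the SOX4 call between lines given below is a description. H1299 controls read 1.20, 0.84, 1.38, 1.31 and 0.93, and H1299shRAD9 controls 0.43, 0.29, −1.76, −1.35 and 0.38. Every H1299shRAD9 control lay below every H1299 control, although replicates 3 and 4 lay far below the other 3. Control replicate 3 of H1299shRAD9 was not well above background. The difference, to which that sample contributes its dim value, was −1.53 ± 0.40 (SE). It passed the thresholds (adjusted p = 0.0211 by limma), as 15.5% of all features did in either direction and 7.68% in this one. Of the 6 member features SOX4 alone did so, and SOX4 alone had groups that did not overlap (7.8% of all features were lower without overlap). By limma 3 of 6 (ID3, SMAD6 and SOX4) had an unadjusted p under 0.05 (39.3%). SMAD6 and SOX4 passed the background filter through H1299, so that count is a description. By limma SOX4 no longer passed without replicate 3 (−1.13, adjusted p = 0.0892) or without replicate 4 (−1.25, adjusted p = 0.0909). Nor did it pass with all groups in one fit (adjusted p = 0.0803) or no filters (adjusted p = 0.0608). No slide held controls of both lines, so slide and line cannot be told apart in this comparison. In bulk RNA, fewer cells that express a gene and less of its RNA per cell cannot be told apart.

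Within H1299 SOX4 showed no difference from controls larger than the replicate spread. DBP samples read 0.18, 1.63, 1.42, 1.02 and 1.07, BP samples 0.85, 1.67, 1.76, 1.25 and 0.77, DBN samples 0.22, 0.58, 1.1, 1.61 and 1.68, and BN samples 1.39, 0.77, 1.34, 1.45 and 1.33. They scattered on both sides of the controls. The differences were −0.07 ± 0.24 for DBP, 0.13 ± 0.21 for BP, −0.09 ± 0.28 for DBN and 0.12 ± 0.12 for BN, with adjusted p between 0.91 and 1.00 by limma. The sign in DBP and DBN turned without replicate 1, that in BP without replicate 2, that in DBN with 75th percentile scaling and that in BN with normexp correction.

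In H1299shRAD9 the SOX4 samples separated by replicate number. DBP samples read 0.03, 0.25, −3.43, −2.14 and −0.54, and BP samples 0.29, 0.27, −1.75, −2.04 and −3.21. DBN samples read −0.87, 0.22, −3.36, −2.69 and −2.28, and BN samples 0.59, 0.24, −2.63, −3.62 and −4.08. Replicates 1 and 2 stood between −0.87 and 0.59 in all 5 groups, replicates 3 and 4 between −3.62 and −1.35, and replicate 5 held both high and low samples, from −4.08 to 0.38. Over the 25 arrays 10 lay above 0 and 13 below −1, with 2 in between. SOX4 was well above background on all 10 arrays of replicates 1 and 2, on 1 of 5 in replicate 3, 1 of 5 in replicate 4 and 3 of 5 in replicate 5, and the values of the others have no firm order.

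**Figure D4:**
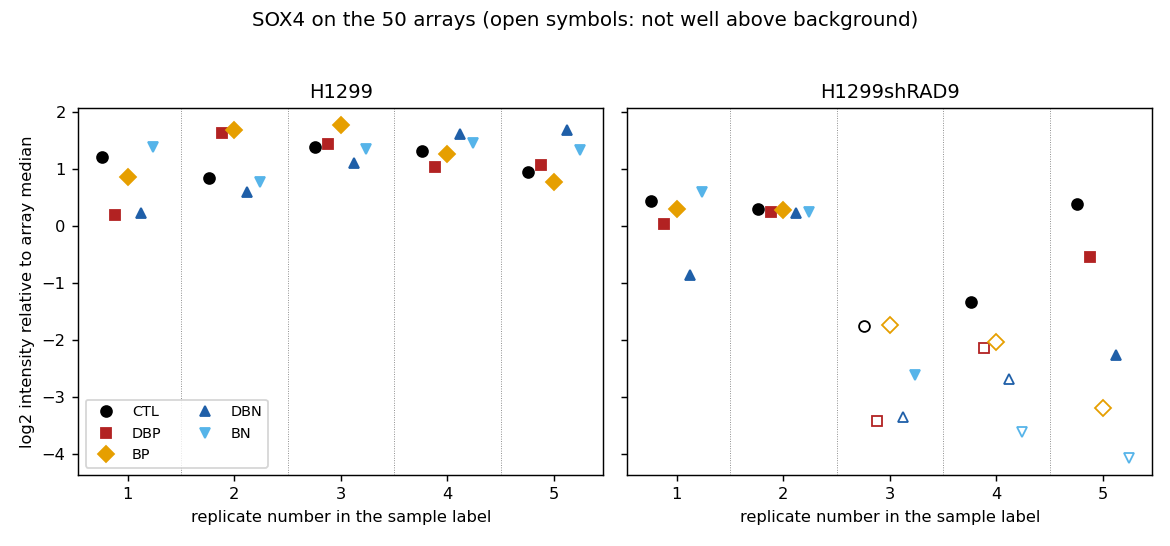
SOX4 as log2 intensity relative to the array median (vertical axis) on each of the 50 arrays, set out by the replicate number of the sample label (horizontal axis), H1299 at left and H1299shRAD9 at right. Symbols give the exposure, and open symbols arrays not well above background. H1299 arrays all lay between 0.18 and 1.76, whereas H1299shRAD9 arrays of replicates 3 and 4 all lay at −1.35 or lower.

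This split was also present within slides. On the slide that held replicate 2 of DBN and BN and replicate 3 of DBP and BP, SOX4 read 0.22 and 0.24 for the former and −3.43 and −1.75 for the latter. On the slide of the replicate 5 samples CTL, DBP, BP and BN it read 0.38, −0.54, −3.21 and −4.08. Slides of both lines gave −2.28 for H1299shRAD9 DBN replicate 5 beside 0.93 and 1.07 for H1299 CTL and DBP, and 0.29 for H1299shRAD9 BP replicate 1 beside 0.22 to 1.39 for 3 H1299 samples. The part of the clones in this split was not tested, since no label assigns them.

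Against controls of the same replicate number, the SOX4 difference in H1299shRAD9 was −0.77 ± 0.21 (DBP), −0.89 ± 0.48 (BP), −1.39 ± 0.31 (DBN) and −1.50 ± 0.63 (BN). It was lower in 5, 4, 5 and 4 of the 5 pairs. SOX4 was well above background on 4 of 5 CTL, 3 of 5 DBP, 2 of 5 BP, 3 of 5 DBN and 3 of 5 BN arrays, so the sizes rest in part on dim values. Without replicate 5 the difference was −0.22 for BP and −0.76 for BN, and over the replicates left out it ran from −0.95 to −0.54 for DBP and from −1.72 to −1.08 for DBN. The SOX4 interaction, a description likewise, was −0.70 ± 0.34 for DBP, −1.02 ± 0.58 for BP, −1.30 ± 0.42 for DBN and −1.62 ± 0.71 for BN. DBN and BN of H1299shRAD9 differed by 0.11 ± 0.39, and DBP and BP by 0.12 ± 0.50. Ordered by mean, the 5 H1299 groups came first, from 1.26 ± 0.46 (SD) in BP to 1.04 ± 0.63 in DBN, and the 5 H1299shRAD9 groups followed, from −0.40 ± 1.06 in CTL to −1.90 ± 2.18 in BN. The gap between the lines was the only one of the 9 larger than the SD of both neighbouring groups.

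The other genes of the pathway were read from lists of 63 genes, of which 62 were on the array and 33 passed both filters. In unirradiated cells 9 of the 33 differed between the lines, 4 higher and 5 lower in H1299shRAD9, with a median of −0.05 beside 0.10 over all features. Of all features 15.5% differed. Among the BMP antagonists 2 of 5 fell, BAMBI, a decoy receptor (−2.58 ± 0.35, adjusted p = 0.00079 by limma) and FST, which binds activins and BMPs (−2.46 ± 0.33, adjusted p = 0.000749). Of the 4 ligands, BMP4 fell (−0.84 ± 0.21, adjusted p = 0.0177) and BMP8B rose (0.70 ± 0.20, adjusted p = 0.0301). Among other direct targets 2 of 6 fell, ATOH8 (−1.11 ± 0.18, adjusted p = 0.00227) and MSX1 (−0.97 ± 0.28, adjusted p = 0.0302). Of the 8 SMADs and SMAD ubiquitin ligases, the ligases SMURF1 (0.54 ± 0.16, adjusted p = 0.0301) and SMURF2 (0.61 ± 0.16, adjusted p = 0.0203) rose. SOX13 rose (0.81 ± 0.17, adjusted p = 0.00913), 1 of 4 SOX genes tested. None of the 3 receptors and none of the 3 bHLH partners passed the thresholds, with 0 and 2 at an unadjusted p under 0.05.

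**Figure D5:**
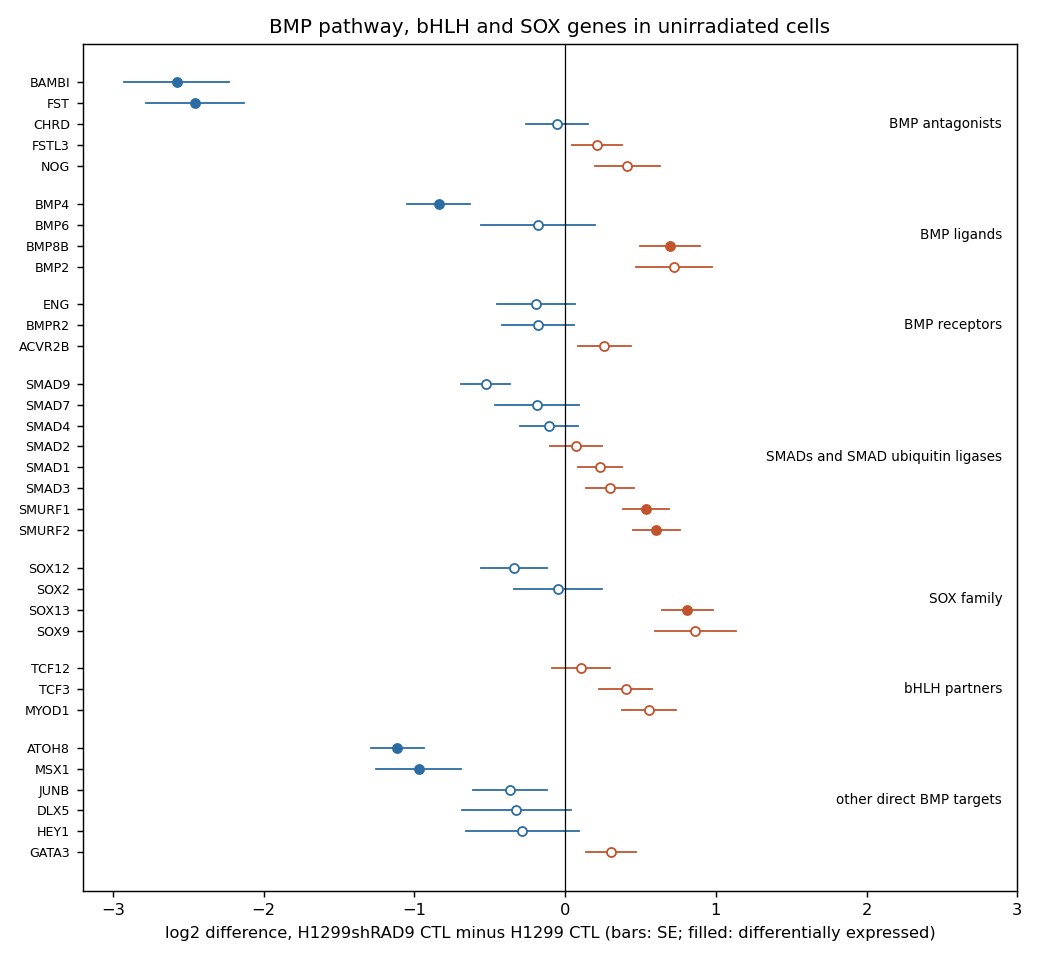
Log2 difference between unirradiated H1299shRAD9 and H1299 cells (horizontal axis, bars 1 SE) for the 33 listed genes tested, grouped by role. Filled points passed the thresholds, orange are higher and blue lower in H1299shRAD9. BAMBI and FST lie farthest from 0, at −2.58 and −2.46.

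In each of the 4 H1299 comparisons with controls 0 of 33 genes passed by limma. At an unadjusted p under 0.05 there were 5 in DBP (6.26% of all features), 1 in BP (5.83%), 1 in DBN (3.47%) and 3 in BN (2.79%). The 6 other direct BMP targets tested had medians of 0.19, −0.16, −0.06 and −0.04 in that order. ATOH8, chosen from them after its values were seen, stood at −0.76 ± 0.24 for DBP (adjusted p = 0.70 by limma), −0.83 ± 0.18 for BP (0.78), −0.69 ± 0.24 for DBN (1.00) and −0.72 ± 0.13 for BN (1.00). In H1299shRAD9 it stood at −0.65 ± 0.18 for DBP, −0.37 ± 0.13 for BP, −0.36 ± 0.18 for DBN and 0.02 ± 0.33 for BN. In H1299shRAD9 the list had 0 genes past the thresholds for DBP, with 6 at such a p (15.1% of all features), 0 for BP with 4 (12.6%) and 0 for BN with 4 (14.3%). In DBN 2 of 33 passed beside 4.78% of all features, SMAD3 at −0.47 ± 0.10 and SOX2 at −0.54 ± 0.10. The medians of the 33 in the 8 comparisons lay between −0.13 and 0.02, and those of all features between −0.10 and 0.02.

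Likeness to each member was measured over the 50 arrays after group means were removed, among 8179 genes, and is a description with no test. Genes close to SOX4 were LAYN (r = 0.84) and ADCY7 (0.82), and those closest to SMAD6 were TTC25, MTL5 and C1orf226 (each 0.78). For ID1 they were FOXD1 (0.80), SMS (0.78) and ERCC6L (0.78), and for ID2 SECTM1 (0.69), VASN (0.61) and GPER (0.61). ID3 had no close companion, with DHRS4, SLC2A1 and FIGN at 0.54, 0.53 and 0.53. Among the members, SOX4 correlated at 0.23 with ID3, −0.37 with SMAD6 and −0.41 with ID4 on this measure, while over the 10 group means the values were 0.49, 0.70 and 0.96. SMAD6, ID4 and SOX4 were all dim on part of the H1299shRAD9 arrays.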

How the data were processed

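The deposited files are single-channel Agilent scans, 1 per sample, with intensities that, per the file headers, had a fitted background subtracted and low spots set to a surrogate value. The authors also deposited a table of log2 values, median normalized, in which 4 of the member features occur, used as an alternative. Here log2 of the processed intensity was scaled to the array median, spots of a probe were averaged without outlier spots, and features well above background on more than 75% of arrays and 1.3-fold from their median on 20% were kept, 12206 in all. Groups were compared with limma 3.58.1 (R 4.3.3), the unirradiated lines unpaired and the others with the replicate number as a block. The methods state paired comparisons. That samples of the same number form the pairs was assumed, as the labels do not state it. Same-numbered arrays correlated after group means were removed, with means of 0.49 to 0.62 in H1299shRAD9 and 0.14 to 0.41 in H1299, where 23 of 30 pairs exceeded 0.1. Interactions had line and replicate as a block. The code was tested on simulated data. The members, gene lists and alternatives were chosen with earlier results of these data known. All features of each member were kept. For listed genes the brightest feature was used, and a listed gene was named where it passed the thresholds or a result turned on it. Alternatives covered scaling, background, filters, fit, test, slide and each replicate. A fixed slide block and no filters were added after the data had been seen. The number of arrays limits the precision.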

Additional observations from a re-analysis of the deposited data

Results flagged for a closer look

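Among 70 sets of 5 arrays (7 features in 10 groups), 3 held a sample whose gap to the nearest of the others exceeded the Dixon ratio of 0.71, and chance alone flags about 1 in 20 such sets. ID1 in H1299 DBP read 8.02 in replicate 4, with the others between 8.44 and 8.49. ID4 in H1299 CTL read −1.12 in replicate 4, with the others between −0.81 and −0.717. SOX4 in H1299 BN read 0.769 in replicate 2, with the others between 1.33 and 1.45. The cause was not tested.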

How the results depend on the processing

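Differences of ID1, ID2 and ID3 from controls were below 0 in all 296 values for H1299 and all 296 for H1299shRAD9 over the main setting and the alternatives that gave a value. These values are refits of the same arrays with the same controls, so they are not independent. The H1299shRAD9 ones include values known when the genes were chosen. In the main setting 9% of all features were below the controls in all 8 comparisons. Between unirradiated lines 1 member feature passed (SOX4), 0 with all groups in one fit, 0 with no filters and 0 to 1 when a replicate was left out. In H1299 DBP the count of 0 became 1 (ID3) with normexp correction, all groups in one fit or slide as a random block. In H1299shRAD9 DBP the count of 4 became 2 with the authors' values, which hold only 4 of the member features. Counts with those values are over fewer features, here and below, so a lower count need not be a lost call. The DBP count was 0 with gIsPosAndSignif as the background mark, slide as a random or fixed block or no filters. It was 0 to 4 when a replicate was left out. In BP 1 became 2 with normexp correction or no 1.3-fold criterion, 0 with the authors' values, that mark, slide as a random or fixed block or no filters, and 0 to 1 when a replicate was left out. In DBN 1 became 3 with all groups in one fit, 0 with the authors' values, that mark, slide as a random or fixed block or no filters, and 0 to 1 when a replicate was left out, and in BN 0 became 1 in one fit. With no replicate block the counts were 0 in DBP, 0 in BP and 0 in DBN of H1299shRAD9, and 0 in the 4 H1299 comparisons, and adding the block left the 1 call between lines. SOX4 in H1299 changed sign in BN with normexp (−0.22) and in DBN with 75th percentile scaling (0.031), and over left-out replicates its differences ran from −0.28 to 0.17 in DBP, −0.048 to 0.25 in BP and −0.30 to 0.13 in DBN. ID2 at A_32_P69368 between lines became −0.064 with normexp, and without 1 replicate ranged from −0.22 to 0.19, ID1 from −0.043 to 0.28. The causes were not tested. Features near background (SMAD6, ID4, SOX4 in H1299shRAD9) are limited by signal.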
